A study of Mus musculus with 2 samples.

Results

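Genes of the transient receptor potential (TRP) cation channels were followed across the cell types of the mouse anterior hypothalamus. The members were 9 genes, chosen by symbol: Trpc1, Trpc4, Trpc5, Trpc6 and Trpc7 of the canonical branch, and Trpm2, Trpm3, Trpm6 and Trpm7 of the melastatin branch. They are 9 of 32289 features counted. Their unique molecular identifiers (UMIs, each standing for 1 captured RNA molecule) were read in nuclei with at least 500 genes and at most 5% of UMIs from mitochondrial genes. Nuclei came from 2 libraries, both of male mice. The aged library pooled tissue of 5 mice of 22 months, and the young library pooled 5 mice of 3 months. The protocol calls the young mice wild-type and does not repeat the word for the aged mice. No transgene, agent or operation is named for either group, and the Cre and tdTomato features held 0 UMIs. The dissection spanned the preoptic area, from 0.5 mm in front of bregma to 0.6 mm behind it. Since each age is 1 library without a replicate, an effect of age cannot be told apart from one of the pool or of the library. No test was made, and the 95% intervals below cover counting error only.

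TRP channels are tetramers that let calcium, sodium and in some cases magnesium or zinc into cells. Trpc channels open downstream of Gq-coupled receptors and phospholipase C, so they turn peptide or transmitter signals into slow depolarisation. Among the melastatin members, Trpm2 opens with ADP-ribose, oxidative stress and warmth and has been studied as a heat sensor of preoptic neurons, and Trpm3 opens with pregnenolone sulphate and heat. Trpm6 and Trpm7 are magnesium-permeable channels fused to a kinase.

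Start regions of the channel-kinase pair and the microRNA inside Trpm3 are shown first, because the results below turn on these genes. Trpm7 was detected at a similar level in all 5 main cell classes, Trpm6 was scarce in all 5, and Trpm3 was the member with most UMIs. Below are the 300 bases around each annotated start (250 before and 50 after), from RefSeq on build GRCm38.p6, with each CG dinucleotide in capitals. CG reads the same on both strands. The Trpm6 stretch is chr19:18749480-18749779 on the plus strand and the Trpm7 stretch is chr2:126876212-126876511 on the minus strand.
Trpm6 promoter: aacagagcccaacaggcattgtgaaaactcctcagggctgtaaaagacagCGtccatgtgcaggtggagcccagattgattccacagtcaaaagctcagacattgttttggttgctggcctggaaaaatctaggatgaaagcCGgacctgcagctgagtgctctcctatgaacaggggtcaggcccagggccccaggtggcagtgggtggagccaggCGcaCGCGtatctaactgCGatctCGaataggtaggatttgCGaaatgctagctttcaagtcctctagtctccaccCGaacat
Trpm7 promoter: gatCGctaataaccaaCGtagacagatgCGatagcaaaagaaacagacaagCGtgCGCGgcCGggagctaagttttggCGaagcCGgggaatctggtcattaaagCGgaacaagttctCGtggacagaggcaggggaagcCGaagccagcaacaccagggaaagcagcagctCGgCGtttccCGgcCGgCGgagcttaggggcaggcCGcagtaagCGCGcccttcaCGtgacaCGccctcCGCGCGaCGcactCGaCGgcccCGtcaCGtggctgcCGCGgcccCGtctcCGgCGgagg
The Trpm7 stretch held 35 CG, and 6.95% of all 32851 promoter stretches in the table held as many or more. The Trpm6 stretch held 9 CG, reached or passed by 45.8% of them, with a median of 7 over all. At least 1 CG was present in 94.6% of stretches. All 9 members were found in that table, with counts from 3 CG in Trpc7 to 35 in Trpm7.

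Mir204 lies within an intron of Trpm3 on the same strand, in the GENCODE M21 annotation, and is not among the counted features. Its mature arms follow from RefSeq, GRCm38.p6, with the seed (bases 2 to 8) in capitals. They lie at chr19:22750610-22750631 and chr19:22750649-22750669 on the plus strand.
mmu-miR-204-5p: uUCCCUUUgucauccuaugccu
mmu-miR-204-3p: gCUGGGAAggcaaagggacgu
The 2 arms have different seeds. The values for Trpm3 below are those of the host transcript only.

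The filter kept 8597 aged and 10437 young barcodes, with medians of 5699 and 5567 UMIs. The members held 71815 and 92425 UMIs there. Removing likely doublets left 8229 aged and 9948 young nuclei, and 25 barcode sequences occurred in both libraries. Rebuilt clusters gave 4999 aged and 6427 young neurons, 1881 and 2134 oligodendrocytes, 183 and 253 oligodendrocyte precursors, 420 and 487 microglia, and 155 and 387 astrocytes. A cluster of 517 aged and 89 young nuclei with a median of 687 UMIs, led by Oxt, Fth1 and ribosomal genes, stayed unnamed and was left out. Nuclei were deeper in the aged library in each of the 5 classes, with medians of 8353 against 7762 UMIs in neurons. Not all neurons carried hypothalamic markers: 476 aged and 586 young nuclei formed a striatal Drd2-like sub-cluster, 131 and 116 a thalamic-like one, and 1 and 73 one led by Pdzrn3 and Slc17a7. The Pdyn Prkch (480 and 520 nuclei) and Impg1 Drd1 sub-clusters (338 and 429), with Drd1 among their leading genes, were closest to striatal Drd1 markers. Closest to these markers, without Drd1 in that place, were also Folh1 Rreb1 (270 and 385), Foxp2 Tshz1 (143 and 128) and Ust Slc22a3 neurons (72 and 145). Values for neurons as a class include all of these nuclei.

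Levels are given as CPM, UMIs scaled to a class total of 1000000. The canonical members Trpc4, Trpc5, Trpc6 and Trpc7 were highest in neurons in both libraries, 4 of the 9 members. In neurons Trpc5 reached 180 CPM in the aged and 195 CPM in the young library, Trpc4 93.5 and 91.9 CPM, Trpc7 51.0 and 62.0 CPM, and Trpc6 25.3 and 24.5 CPM. Of all UMIs of these genes, neurons held between 98.1% and 99.4% in each library. Trpc5 was the only one of this set with a sizeable level in a glial class: precursors had 81.6 CPM (63.2 to 104) aged and 71.1 CPM (55.9 to 89.2) young. Trpc4 had 0 UMIs in precursors of either library, which allows up to 3.65 CPM aged and 2.85 CPM young at 3 counts. Trpc6 had 0 UMIs in microglia, which allows up to 3.13 and 3.14 CPM.

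**Figure D1:**
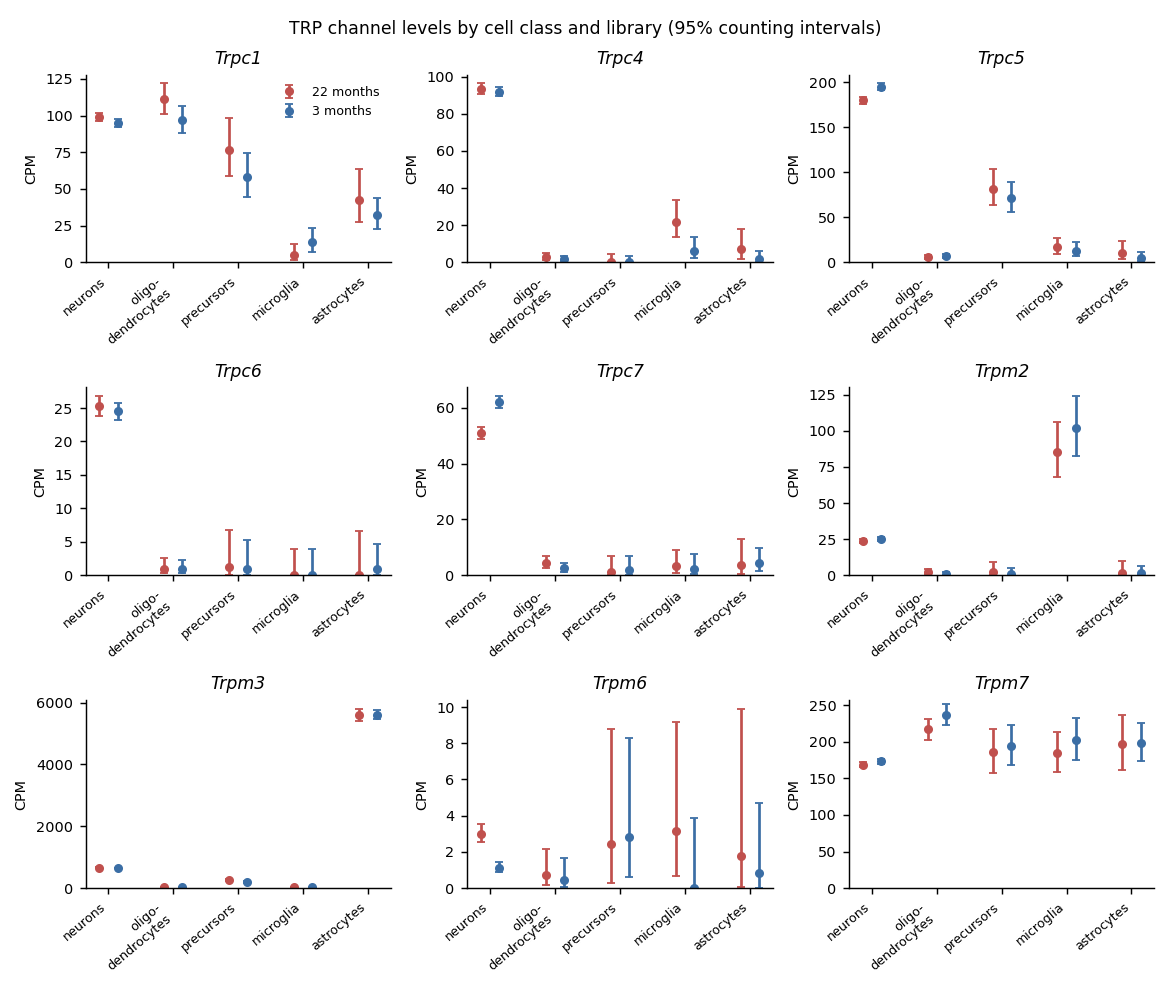
Level of each TRP gene (y axis, CPM, linear axes that differ between genes) in the 5 main cell classes (x axis) at 22 months (red) and 3 months (blue), 1 library each; bars are exact Poisson 95% counting intervals. Trpm3 stands at 5587 and 5607 CPM in astrocytes, Trpm2 is highest in microglia, and Trpm7 lies between 169 and 238 CPM in all classes.

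Trpc1, a subunit that joins other Trpc proteins in mixed channels, was spread over neurons and the oligodendrocyte lineage. Oligodendrocytes had 111 CPM (101 to 122) aged and 96.9 CPM (87.9 to 107) young, and neurons had 99.1 and 94.8 CPM. The intervals of these 2 classes touched in both libraries, so their order was not resolved. Precursors followed at 76.7 and 57.8 CPM, astrocytes at 42.6 and 32.1 CPM, and microglia were lowest at 5.22 and 13.6 CPM.

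Trpm3 held the most UMIs of the members, and its level stood apart in astrocytes. Astrocytes had 5587 CPM (5394 to 5786) aged and 5607 CPM (5473 to 5744) young, neurons 661 and 647 CPM, and precursors 250 and 187 CPM. Oligodendrocytes and microglia had between 16.8 and 21.9 CPM, below the 226 CPM aged and 402 CPM young of barcodes with at most 100 UMIs, which hold mainly free RNA. With every nucleus thinned to 1000 UMIs, 93.5% of aged and 92.7% of young astrocytes held a Trpm3 UMI, against 98.7% and 95.9% without thinning. The thinned shares were 34.6% and 34.3% in neurons and 2.37% and 1.54% in oligodendrocytes, the class taken here as background, where median depths were 2023 and 1891 UMIs against 3470 and 2858 in astrocytes. Thinning left out 1 aged and 2 young astrocytes. Summed neuron markers in astrocytes were 2187 CPM aged and 759 CPM young, and the part of this gap in astrocyte values was not tested.

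Trpm2 was highest in microglia, the brain's resident macrophages. Microglia had 85.7 CPM (68.2 to 106) on 82 UMIs aged and 102 CPM (82.4 to 124) on 97 UMIs young. Neurons had 23.5 CPM (22.1 to 24.9) aged and 24.9 CPM (23.6 to 26.2) young, below microglia by non-overlapping intervals in both libraries. Oligodendrocytes, precursors and astrocytes had at most 9 UMIs each per library. After thinning, 8.89% of aged and 8.88% of young microglia held a Trpm2 UMI, 1.82% and 2.37% of neurons, and 0.323% and 0.0962% of oligodendrocytes. Unthinned shares were 15.9% and 16.0% in microglia but 18.2% and 18.0% in the deeper neurons, an order opposite to that of the CPM.

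Trpm7 was the most even member. Its class levels ran from 169 CPM in neurons to 217 CPM in oligodendrocytes in the aged library, and from 174 to 238 CPM in the same classes in the young one. Microglia, astrocytes and precursors lay between, from 185 to 202 CPM, with intervals that overlapped one another. Trpm6 was near the limit of detection, with 157 aged and 101 young UMIs over all nuclei. Neurons had 3.01 CPM (2.53 to 3.55) on 140 UMIs aged and 1.13 CPM (0.868 to 1.44) on 63 UMIs young, and no glial class held more than 3 UMIs in a library. The class with the highest Trpm6 CPM (microglia aged, precursors young) is therefore not resolved.

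As a second scale, levels were divided by gene length, introns included. UMIs count molecules, and how introns were counted is not stated, so this scale does not settle an order of genes. Relative to CPM it raises short genes, and in CPM Trpm3 was the highest member in neurons (661 and 647 CPM). Gene lengths ran from 45.3 kb for Trpc1 to 856 kb for Trpm3. Per 100 kb, neurons had 219 and 209 CPM of Trpc1 and 199.5 and 205 CPM of Trpm7, the 2 highest. Trpm3 came next at 77.2 and 75.5 CPM per 100 kb, followed by Trpc5 at 58.7 and 63.6 and Trpc4 at 57.55 and 56.6. Trpc7 had 41.5 and 50.5, Trpm2 37.3 and 39.6, Trpc6 18.5 and 17.9, and Trpm6 2.11 and 0.792 CPM per 100 kb. In astrocytes Trpm3 stayed the highest member on this scale, at 652 and 655 CPM per 100 kb. Counted genes on the opposite strand overlap Trpc5 (Trpc5os, 536 UMIs), Trpc6 (Gm32014, 2708 UMIs) and Trpm3 (Gm27151, 1332 UMIs, and C330002G04Rik, 696 UMIs). No source used here says whether counting used strand, so reads of these pairs may not be separated.

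Neurons were clustered again alone, without any TRP gene among the variable genes, into 28 sub-clusters, of which 25 had at least 20 nuclei in each library. Sub-clusters are named after a type where its markers led, and otherwise after 2 leading genes. The same sub-cluster had the highest level in both libraries for 7 of the 9 members. The exceptions were Trpc1 and Trpm7, the members with the flattest profiles: the highest sub-cluster stood 1.31 and 1.37 times above the median sub-cluster for Trpc1 and 1.16 and 1.28 times for Trpm7.

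**Figure D2:**
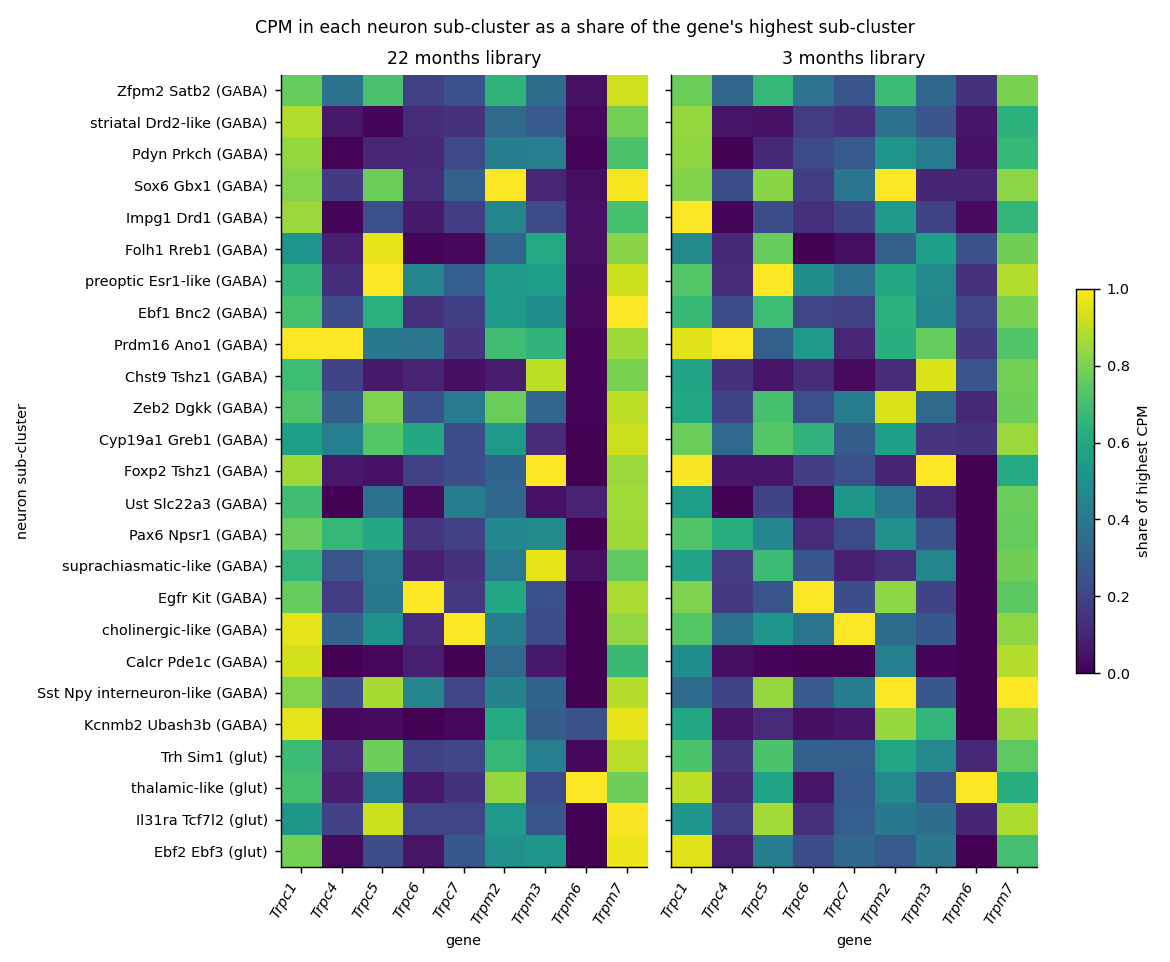
Level of each TRP gene (columns) in 25 neuron sub-clusters (rows, with their transmitter) as a share of that gene's highest sub-cluster, from 0 (dark) to 1 (yellow), for the aged library (left) and the young library (right), computed from CPM. Trpc4 peaks in Prdm16 Ano1 neurons, Trpc6 in Egfr Kit, Trpc7 in cholinergic-like and Trpm6 in thalamic-like neurons in both libraries, while Trpc1 and Trpm7 are high throughout. The transmitter is called from Gad1 and Gad2 against Slc17a6 and Slc17a7 only, so cholinergic-like neurons are marked as GABAergic.

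Trpc4 and Trpc5, close relatives activated through Gq and Gi/o-coupled receptors, peaked in different neurons. Trpc4 was highest in Prdm16 Ano1 neurons, with 475 CPM (446 to 505) aged and 459 CPM (433 to 485) young against medians of 80.9 and 68.8 CPM over sub-clusters. Pax6 Npsr1 neurons came next at 317 and 289 CPM, apart from both neighbours in the order in each library. Ust Slc22a3 neurons held 0 Trpc4 UMIs in 72 aged and 145 young nuclei, which allows up to 6.06 and 3.60 CPM.

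Trpc5 was highest in preoptic Esr1-like neurons, the GABAergic type marked by the oestrogen receptor gene, with 352 CPM (331 to 374) aged and 384 CPM (363 to 406) young. Folh1 Rreb1 neurons followed in the aged library at 340 CPM (295 CPM young) and Il31ra Tcf7l2 neurons in the young one at 330 CPM (325 CPM aged), each with an interval that overlapped that of the leader. At the other end, Calcr Pde1c neurons had 7.21 CPM aged and 7.46 CPM young. Striatal Drd2-like neurons had 4.91 CPM (3.08 to 7.43) aged and 16.9 CPM (13.7 to 20.7) young, while Pdyn Prkch neurons had 38.3 and 43.8 CPM and Impg1 Drd1 neurons 86.5 and 92.6 CPM. Free RNA held 46.7 CPM aged and 94.3 CPM young of Trpc5, so the striatal Drd2-like level was below that of free RNA in both libraries. From markers of other classes, free RNA was estimated as 10.85% of neuron UMIs aged and 8.79% young. Free RNA alone would thus give neurons less than these 2 levels.

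Trpc6, a channel gated directly by diacylglycerol, was highest in Egfr Kit neurons at 131 CPM (104 to 163) aged and 92.2 CPM (73.7 to 114) young, on 79 and 85 UMIs. Cyp19a1 Greb1 neurons, marked by aromatase, came next at 78.8 and 59.9 CPM, with intervals below that of the leader by a margin in the aged library (64.0 to 96.0) and narrowly in the young one (48.2 to 73.5). Trpc7, its diacylglycerol-gated relative, was highest in cholinergic-like neurons at 229 CPM (191 to 272) aged and 236 CPM (203 to 273) young. That sub-cluster had 31 aged and 50 young nuclei, of which 27 and 46 held a Trpc7 UMI. Ust Slc22a3 neurons ranked second for Trpc7 in both libraries at 96.9 and 125 CPM.

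Trpm3 spanned a wide range in neurons. Foxp2 Tshz1 neurons had 1706 CPM aged and 1747 CPM young, and Chst9 Tshz1 neurons 1535 and 1647 CPM, with overlapping intervals in the young library. Sox6 Gbx1 neurons had 182 and 184 CPM and Calcr Pde1c neurons 115 and 22.4 CPM. Sox6 Gbx1 neurons, low in Trpm3, had the highest Trpm2 level in both libraries, at 41.8 CPM (35.6 to 48.7) aged and 43.0 CPM (37.7 to 48.9) young. For Trpm2 the neighbours in the order (thalamic-like aged, Sst Npy interneuron-like young) were not apart from it.

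Trpm6 was highest in thalamic-like neurons in both libraries, glutamatergic cells with Tcf7l2, Lef1 and Ntng1 among their 10 leading genes. The interval of the next sub-cluster in each library, on 3 UMIs or fewer, overlapped theirs. Thalamic-like neurons held 91 of the 140 neuronal UMIs aged and 14 of the 63 young. GABAergic sub-clusters together held 45 UMIs aged (1.16 CPM) and 41 young (0.896 CPM). A median sub-cluster stood at 0.788 and 0.546 CPM, and 9 aged and 10 young sub-clusters had 0 UMIs. Trpm6 lies 38.1 kb from Rorb, a thalamic and suprachiasmatic marker gene on the opposite strand. Rorb was high in both types, with 604 and 700 CPM in thalamic-like and 1848 and 2216 CPM in suprachiasmatic-like neurons, and Trpm6 in the latter had 1.91 CPM aged and 0 young.

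Between the ages, class levels differed little. A gene was counted as past the fold where it had at least 50 UMIs over both libraries and the CPM differed by 1.5 times or more. In neurons 1 of the 9 members passed, Trpm6, higher at 22 months, against 9.44% of all 18025 features tested in neurons and 3.06% for higher alone. This call rested on the thalamic-like sub-cluster: without it 0 members passed in neurons, and the log2 difference of Trpm6 was 0.29 in place of 1.41. For lower alone the share was 6.38%, and 0 members passed. In oligodendrocytes 0 of 4 members with enough UMIs passed, against 9.8% of all features there (7.03% higher and 2.76% lower). In precursors it was 0 of 4 against 13.7% (6.9% higher and 6.76% lower), in microglia 0 of 2 against 12.6% (7.68% higher and 4.88% lower), and in astrocytes 0 of 3 against 13.5% (7.35% higher and 6.14% lower). With doublets kept, 4 pairs of a member and one of these classes passed: Trpc6 in oligodendrocytes (1.68), Trpc5 and Trpm3 in microglia (0.526 and 0.662) and Trpc4 in astrocytes (0.418). The median log2 difference of the members in neurons was 0.02, the same as over all features.

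**Figure D3:**
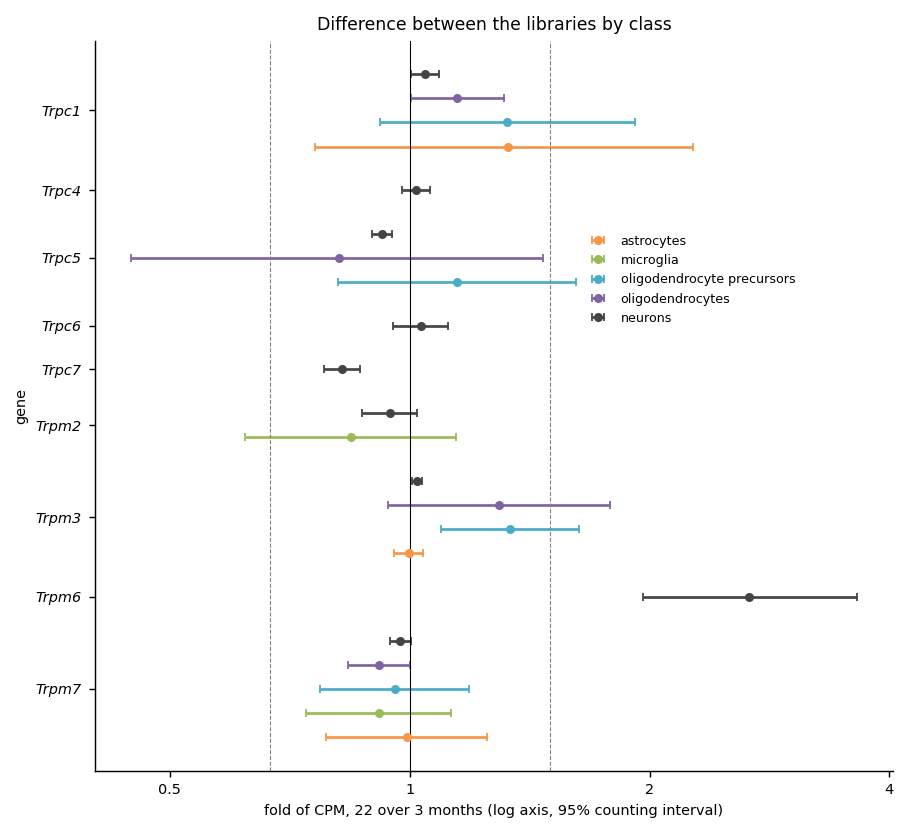
Ratio of CPM at 22 over 3 months (x axis, log scale) for each TRP gene (y axis) in each main class with at least 50 UMIs (colours); bars are exact conditional binomial 95% counting intervals and dashed lines mark 1.5-fold in either direction. Trpm6 in neurons, at 2.66 with the thalamic-like sub-cluster included, is the single point beyond the lines.

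The other neuronal ratios of aged over young were close to 1. Trpc7 was lowest at 0.822 (0.780 to 0.867), and Trpc5 stood at 0.923 (0.897 to 0.950). With free RNA subtracted, the log2 difference of Trpc5 was -0.06 in place of -0.12, outside its counting interval. Trpc1 was at 1.05 (1.00 to 1.09), Trpc4 at 1.02 (0.977 to 1.06), Trpc6 at 1.03 (0.953 to 1.12), Trpm3 at 1.02 (1.01 to 1.04), Trpm7 at 0.973 (0.945 to 1.00) and Trpm2 at 0.943 (0.871 to 1.02). In astrocytes Trpm3 stood at 0.996 (0.955 to 1.04). In microglia Trpm2 stood at 0.843 (0.6204 to 1.14), an interval too wide to tell a modest difference from none. In precursors Trpm3 was at 1.34 (1.09 to 1.63), under the fold.

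The Trpc7 ratio was below 1 in nearly every neuron type with enough UMIs. Trpc7 was lower in the aged library in 18 of the 19 such sub-clusters, while 48% of all feature and sub-cluster pairs were lower. That share is over pairs, and how many features are lower in nearly all of their sub-clusters was not counted. Some of the differences were slight, as in striatal Drd2-like neurons at 32.6 and 32.9 CPM. The intervals of 5 of the 19 lay apart from 1, and 1 pair passed the fold, thalamic-like neurons with 33.4 CPM (26.2 to 42.0) aged and 67.1 CPM (54.9 to 81.2) young. In glutamatergic sub-clusters together the Trpc7 ratio was 0.691 (0.604 to 0.788) and in GABAergic ones 0.851 (0.803 to 0.901). These labels compare Gad1 and Gad2 with Slc17a6 and Slc17a7 only, so cholinergic-like neurons were counted as GABAergic. The sub-clusters share the 2 libraries and are not independent of one another.

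Over neuron sub-clusters, 157 of 225 pairs of a member and a sub-cluster had enough UMIs, and 14 passed the fold. That count is close to the background, where 10.1% of 192954 feature and sub-cluster pairs passed. Of the 14 pairs, 7 were higher at 22 months (background 4.46%) and 7 lower (5.68%). Trpc5 and Trpm3 gave 4 pairs each, in both directions, and Trpc1 and Trpc6 gave 0. The interval of 13 of these pairs lay apart from 1, the exception being Trpm7 in Calcr Pde1c neurons at 0.650 (0.417 to 1.00). Without the nucleus with most UMIs of the gene in each library, the count was again 14 but not of the same pairs. Trpm7 in Calcr Pde1c neurons (0.674) and Trpc4 in suprachiasmatic-like neurons (1.48) no longer passed, while Trpc6 in Zeb2 Dgkk neurons (1.55) and Trpc7 in Egfr Kit neurons (0.657) did. Trpc4 in Zeb2 Dgkk neurons stood at 140 CPM aged and 91.9 CPM young.

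**Figure D4:**
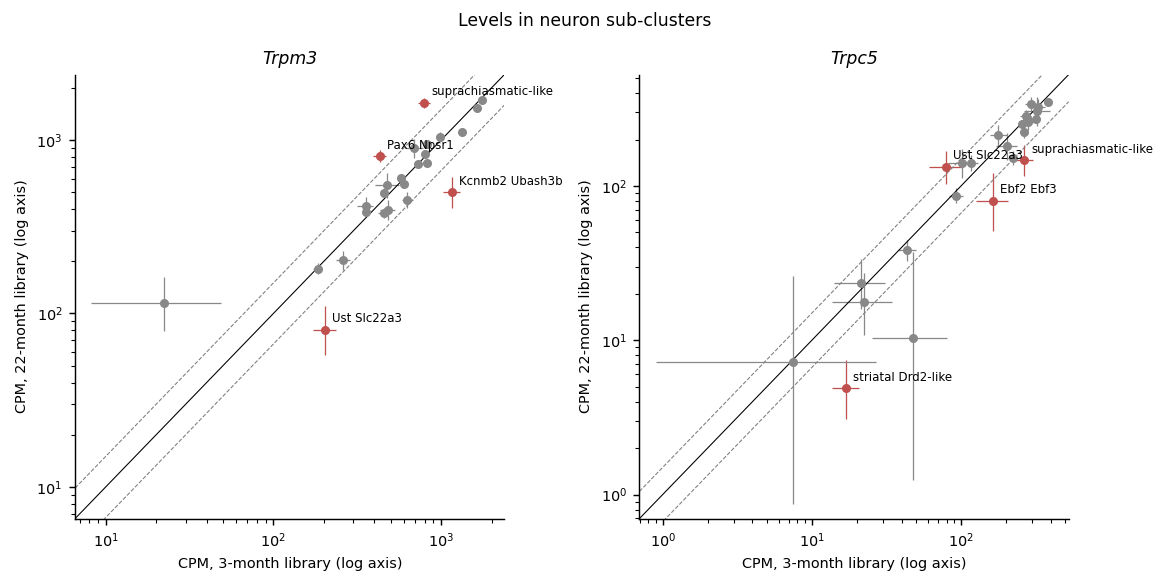
CPM of Trpm3 (left) and Trpc5 (right) in each neuron sub-cluster of the young (x axis) and aged (y axis) library, log axes, with exact Poisson 95% counting intervals; the solid line marks equal levels, dashed lines 1.5-fold, and red points are the sub-clusters past the fold with at least 50 UMIs. Most sub-clusters lie between the dashed lines, and suprachiasmatic-like neurons are above for Trpm3 (1642 against 793 CPM) and below for Trpc5 (147 against 264 CPM).

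In suprachiasmatic-like neurons, the type that holds the brain's circadian clock, 3 of 5 members with enough UMIs passed the fold, against 13.2% of all features there and 6.64% for higher alone. This sub-cluster and the thalamic-like one had the most members past the fold of the 25 compared. The share is thus not that of a type picked beforehand. Trpm3 had 860 UMIs and 1642 CPM (1534 to 1755) aged and 544 UMIs and 793 CPM (727 to 862) young, 2.07 times higher (1.86 to 2.31). Trpc5 stood at 147 CPM (116 to 184) aged and 264 CPM (227 to 305) young, and Trpc4 at 122 and 80.1 CPM. The Trpc4 ratio was 1.48 (0.999 to 2.20), under the fold, without the nucleus with most Trpc4 UMIs in each library. The sub-cluster had 79 aged and 110 young nuclei, with medians of 5872 and 5513.5 UMIs. Its summed type markers were 4402 CPM aged and 4704 CPM young, with 0 of 7 at 0 in either library. Oligodendrocyte markers summed to 420 and 350 CPM, and astrocyte markers to 93.5 and 78.7 CPM with Gja1 at 0. The part of these in the differences was not tested.

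Trpm3 in this type differed with the peptide gene of the nucleus. Nuclei rich in Avp, the vasopressin gene, had little Trpm3: 5 UMIs in 11 aged nuclei and 12 UMIs in 11 young ones, with a median of 0 CPM in both. Nuclei with at least 5 UMIs of Vip, the peptide gene of the clock's light-receiving core, held 306 UMIs over 14 aged nuclei (3252 CPM, 2898 to 3638) and 153 over 15 young ones (1589 CPM, 1347 to 1861). The limit of 5 was chosen after the values were seen. The remaining 54 aged and 84 young nuclei had 1534 CPM (1409 to 1668) and 733 CPM (661 to 810). Many of these also held 0 Trpm3 UMIs in each library, so a lack of Trpm3 was not particular to Avp-rich nuclei. The aged-to-young ratio was alike in both sets with Trpm3, at 2.05 (1.68 to 2.50) with Vip and 2.09 (1.83 to 2.39) in the remainder. Per nucleus the spread was wide, with medians of 1122 CPM aged and 630 CPM young in the Vip set and a highest nucleus of 139 aged UMIs. Without the nucleus with most Trpm3 UMIs in each library the ratio in the whole sub-cluster was 1.98 (1.76 to 2.23).

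**Figure D5:**
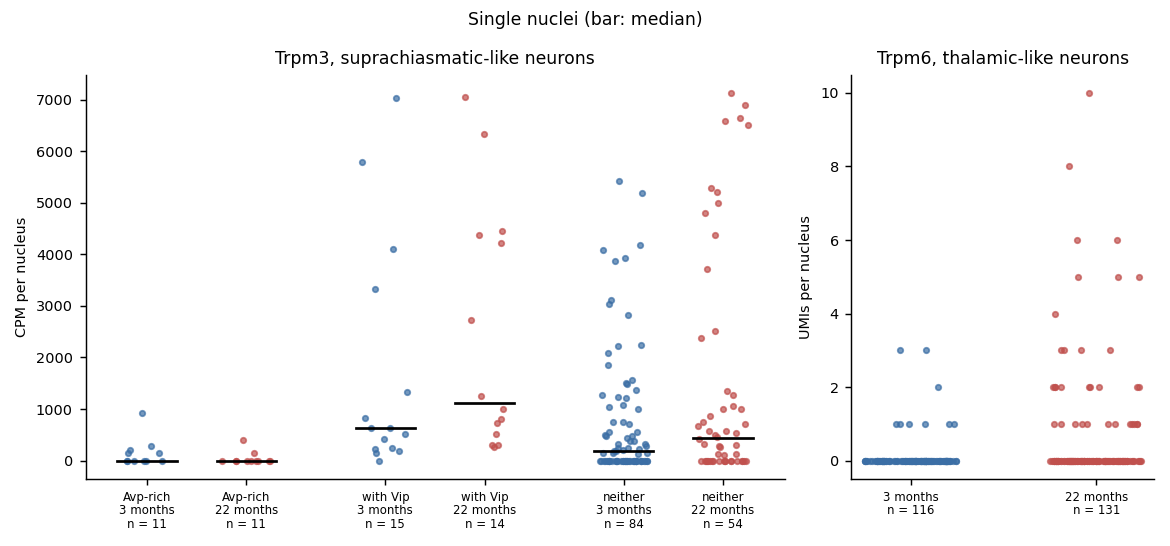
Trpm3 in single suprachiasmatic-like nuclei (left, CPM per nucleus, split into Avp-rich, with at least 5 Vip UMIs, and neither) and Trpm6 in single thalamic-like nuclei (right, UMIs per nucleus), for the young (blue) and aged (red) library; each point is a nucleus, jittered sideways, and bars are medians. Avp-rich nuclei lie at the bottom in both libraries, and thalamic-like nuclei reach 10 Trpm6 UMIs aged and 3 young.

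In thalamic-like neurons 3 of 8 members with enough UMIs passed the fold, against 13.9% of all features there: Trpm6 and Trpm2 higher at 22 months (background 5.62%) and Trpc7 lower. As said above, this sub-cluster was among those with most members past the fold, and was not picked beforehand. Trpm6 had 91 UMIs and 41.6 CPM (33.5 to 51.1) aged and 14 UMIs and 8.94 CPM (4.89 to 15.01) young, 4.65 times higher (2.64 to 8.85). A Trpm6 UMI was found in 33 of 131 aged nuclei (25.2%, exact Clopper-Pearson 18.0 to 33.5) and in 9 of 116 young nuclei (7.76%, 3.61 to 14.2). After thinning to 1000 UMIs the shares were 4.58% (1.70 to 9.70) and 3.45% (0.947 to 8.59), which overlap. Aged nuclei were deeper, with medians of 13891 against 11237 UMIs. The ratio without the nucleus with most Trpm6 UMIs in each library was 5.28 (2.80 to 10.99).

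Outside the thalamic-like sub-cluster, Trpm6 had 49 UMIs in each library, 1.10 CPM (0.817 to 1.46) aged and 0.904 CPM (0.669 to 1.195) young. Thalamic markers summed to 5479 CPM aged and 5176 CPM young in the sub-cluster, with 0 of 6 at 0. Ntng1 gave most of this sum (3740 and 3379 CPM). Lef1 (180 and 88.2 CPM), Prkcd (56.7 and 30.7 CPM) and Slc17a6 (355 and 310 CPM) were also higher aged. Tcf7l2 (544 and 669 CPM) and Rorb (604 and 700 CPM) were lower aged. Astrocyte markers summed to 533 CPM aged and 251 CPM young, mostly from Slc1a2 (382 and 217 CPM) and Slc4a4 (139 and 26.8 CPM). Each other astrocyte marker had at most 4.57 CPM in either library. Precursor markers, with Cspg4 at 0 in both libraries, summed to 1572 and 1948 CPM. Lhfpl3 (1138 and 1402 CPM) and Tnr (422 and 530 CPM) gave most of this. The part of these markers in the Trpm6 values was not tested, and Trpm6 itself had 1 UMI in astrocytes of each library. Thalamus borders the dissected region, and how much of it each pool held cannot be told apart from age. Trpm2 in the same nuclei stood at 35.2 CPM (27.8 to 44.0) aged and 20.4 CPM (14.0 to 28.9) young, 1.72 times higher (1.13 to 2.69).

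Trpm3 and Trpc5 also passed the fold in other neuron types. In Pax6 Npsr1 neurons Trpm3 stood at 808 CPM (745 to 874) aged and 430 CPM (395 to 467) young. In Ust Slc22a3 neurons it had 40 UMIs and 80.8 CPM (57.7 to 110) aged and 168 UMIs and 202 CPM (172 to 235) young, while Trpc5 there was in the opposite direction, at 133 and 79.3 CPM. In Kcnmb2 Ubash3b neurons Trpm3 stood at 503 CPM in 22 aged and 1156 CPM in 33 young nuclei, but 82 of the 98 aged UMIs came from 1 nucleus, and without the top nucleus of each library the levels were 87.6 and 992 CPM. For Trpc5, striatal Drd2-like neurons had 22 UMIs aged and 93 young, and Ebf2 Ebf3 neurons, a glutamatergic type, 80.4 CPM (51.0 to 121) aged and 163 CPM (126 to 207) young. Both striatal Drd2-like levels lay below those of free RNA (46.7 CPM aged and 94.3 CPM young). Those are levels within free RNA itself, which made up an estimated 10.85% of neuron UMIs aged and 8.79% young. Free RNA was not subtracted for these pairs, and its part in the ratio was not tested.

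The study's title names supraoptic vasopressin neurons, so neurons rich in Avp or Oxt (at least 20 UMIs of either and 0.5% of the nucleus) were read as a set. There were 23 aged and 31 young nuclei. In those of the Sim1 supraoptic-like sub-cluster, named for the paraventricular and supraoptic lineage, Trpc5 had 103 UMIs in 12 aged nuclei (780 CPM, 637 to 946) and 99 UMIs in 16 young ones (576 CPM, 468 to 701). Of these nuclei 10 aged and 13 young held a Trpc5 UMI, and 1 aged nucleus held 44. The Trpc5 level in the whole sub-cluster, 728 and 576 CPM, was above that of any of the 25 larger neuron sub-clusters, with intervals above that of the highest of them. Trpm3 was close to absent from the rich Sim1 nuclei, with 1 UMI aged and 2 young, and of the 36 aged Trpm3 UMIs in the sub-cluster 35 came from 1 nucleus outside the rich set.

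In the rich set 2 of 4 members with enough UMIs passed the fold, against 19% of all features: Trpc1 at 152 and 93.97 CPM (ratio 1.62, 0.929 to 2.84) and Trpm3 at 29.4 CPM aged and 427 CPM young. Of the 118 young Trpm3 UMIs, 103 lay in 3 preoptic Esr1-like nuclei, a type with no rich nucleus in the aged library. The suprachiasmatic-like rich nuclei held 5 aged and 12 young Trpm3 UMIs. In Sim1 supraoptic-like neurons 0 of 2 members with enough UMIs passed the fold (20.6% of all features, 9.91% for higher alone).

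Genes with the most similar profile were sought over 29 groups, the 25 neuron sub-clusters and the 4 main glial classes, among 9824 genes, by Pearson r of log2(CPM + 5) in each library. These points share libraries and depth, and r is a description only. For Trpc5 the closest gene was Rtl4, with r of 0.91 aged and 0.93 young. Rtl4, a gene derived from a retrotransposon, lies 0.727 kb from the 5′ end of Trpc5 on the opposite strand of chromosome X in GENCODE M21. Trpc1 was closest to Dock3 (0.90 and 0.83), Trpc4 to Gse1 (0.80 and 0.80), Trpc6 to Ly6h (0.81 and 0.75) and Trpc7 to Hs6st3 (0.79 and 0.85). Trpm2 was closest to Myo9b (0.81 and 0.77), Trpm3 to Tnik (0.75 and 0.73), Trpm6 to Synpo2 (0.73 and 0.59) and Trpm7 to Eef1g (0.80 and 0.76). Synpo2 is the first leading gene of the thalamic-like sub-cluster, and Trpm6 was near the limit of detection elsewhere. The r of Trpm6 therefore rests largely on that 1 group.

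The next genes by likeness were Hdx and Ppp2r2c for Trpc1, Baiap3 and Gpc3 for Trpc4, Ece2 and Lrfn1 for Trpc5, Esyt3 and Bbs5 for Trpc6, and Cntnap1 and Lin28b for Trpc7. For the melastatin members they were Evl and Atxn7l1 for Trpm2, Cpe and Fmn2 for Trpm3, Ptpn4 and Amotl1 for Trpm6, and Cct5 and Atp5j for Trpm7. Most of these names rested on the choice of groups. With mural and endothelial cells added, 31 groups in all, 7 of the 27 genes were named again (Hdx, Gpc3, Rtl4, Ly6h, Hs6st3, Tnik and Cct5), and Rtl4 had r of 0.93 and 0.90. Among the members themselves, Trpc4, Trpc5, Trpc6 and Trpc7 were positively correlated over the 29 groups in both libraries, from 0.46 for Trpc4 with Trpc7 young to 0.69 for Trpc5 with Trpc7 young. The groups include the glial classes, where each of these genes was lower than in neurons. Their r over neuron sub-clusters alone was not computed. Trpm3 and Trpm2 had r of -0.22 aged and -0.19 young. The same gene across the libraries gave r from 0.51 for Trpm7 to 0.97 for Trpc7.

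Other genes of the channels' pathways were counted in neurons, where 52.9% of all features tested were higher at 22 months. Of 18 further TRP genes in the files, 10 had enough UMIs, with 6 higher and 4 lower at 22 months, 1 and 3 of them past the fold and a median log2 difference of 0.09. Those named by rule were Pkd2l2 at 9.71 CPM aged and 17.2 CPM young, Trpv6 at 0.666 and 1.60 CPM, and Trpv3 at 1.03 and 0.430 CPM, the last 2 close to the limit of detection. Trpv1 and Trpa1, heat and irritant sensors of sensory nerves, had 11 and 13 UMIs aged and 14 and 19 young.

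Upstream of the Trpc channels, 0 of 18 genes of Gq, phospholipase C and store-operated entry passed the fold, with 13 higher, 5 lower and a median of 0.07. Plcb4, a phospholipase C, stood at 187 and 162 CPM, Itpr2, a calcium release channel, at 9.21 and 7.28 CPM, and Plcg1 at 26.7 and 30.9 CPM. Beside Trpm6 and Trpm7, 0 of 13 magnesium transport genes passed, with 8 higher, 5 lower and a median of 0.01. Magt1 stood at 14.7 CPM aged and 20.4 CPM young, Cnnm3 at 30.1 and 26.4 CPM, and Nipa1 at 76.3 and 82.2 CPM.

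Around Trpm2, 1 of 8 ADP-ribose genes passed the fold, Macrod1, an ADP-ribose hydrolase, at 63.4 CPM aged and 96.8 CPM young, with 5 higher, 3 lower and a median of 0.07 over the list. Nudt5, which cleaves ADP-ribose, stood at 42.7 and 58.8 CPM, and Macrod2 at 1733 and 1579 CPM. Of 9 preoptic thermoregulation genes 1 passed, the leptin receptor gene Lepr at 3.97 CPM aged and 2.42 CPM young, with 5 higher, 4 lower and a median of 0.01. Nts stood at 76.7 and 97.2 CPM and Slc17a6 at 54.5 and 46.9 CPM. The median over all features was 0.02, and 9.44% of them passed the fold in neurons.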

How the data were processed

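Per the labels' protocols, tissue of 5 mice per age was pooled and homogenised, nuclei were cleaned on an iodixanol gradient, freed of myelin with magnetic beads, sorted with DAPI and loaded for droplet sequencing (10x Genomics) with an aim of 10000 nuclei per sample. The authors deposited, per library, unfiltered UMI counts per gene and barcode, which the file headers credit to Cell Ranger 4, with 79107368 aged and 87520038 young UMIs. No source used here states the build, the annotation or how introns and strand were handled. All later steps were computed here. Barcodes with 500 or more genes and 5% or less mitochondrial UMIs were kept. Scrublet in scanpy 1.11.5 marked 368 aged (4.28%) and 489 young (4.69%) of them, which were left out. Counts were scaled to 10000 UMIs and log transformed, and Leiden clusters (leidenalg 0.10.2, resolution 1, 2000 variable genes without TRP genes, 30 components, 15 neighbours) were named from marker lists where 3 or more markers were detected. Names are rebuilt and mean resemblance. CPM intervals are exact Poisson, ratio intervals exact conditional binomial and share intervals exact Clopper-Pearson, at 95%, from scipy 1.17.1. Only the ratio intervals were tested on simulated data, which were Poisson sums without clumping of UMIs in single nuclei. Droplet UMIs count molecules, yet intervals and zero limits (3 counts) cover counting error only. Gene lengths, overlaps and order come from GENCODE M21 by Ensembl identifier. The members, gene lists and sub-cluster sets were chosen with earlier results of these data known. Named genes were the 9 members, up to 3 genes per list with the ratio interval farthest from 1, and the 3 genes most alike to each member over cell groups. Alternatives covered filters, doublets, scaling, free RNA, thresholds and clustering.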

Additional observations from a re-analysis of the deposited data

Results flagged for a closer look

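Trpc5 and Trpm3 were higher at 22 months in some neuron sub-clusters and lower in others. The ratio of aged over young for Trpc5 was 1.68 in Ust Slc22a3 neurons, against 0.290 in striatal Drd2-like, 0.557 in suprachiasmatic-like and 0.494 in Ebf2 Ebf3 neurons. For Trpm3 it was 1.88 in Pax6 Npsr1 and 2.07 in suprachiasmatic-like neurons, against 0.4002 in Ust Slc22a3 and 0.435 in Kcnmb2 Ubash3b neurons. The difference between these types was not tested, since each age has 1 library. Trpc5 in striatal Drd2-like neurons was below the level within free RNA itself in both libraries. Free RNA made up an estimated 10.85% of neuron UMIs aged and 8.79% young.

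Signals also appeared in cell classes too small for the comparison of ages. Mural cells, the contractile cells of vessel walls, had 662 CPM of Trpc4 on 39 UMIs in 29 aged nuclei and 166 CPM on 19 UMIs in 38 young nuclei, above every main class. At most 4 of the aged UMIs came from 1 nucleus. Fibroblasts had 79.9 CPM of Trpm6 on 30 UMIs, spread over 22 of 95 young nuclei, against 1.13 CPM in young neurons. The 16 aged fibroblasts held 4 Trpm6 UMIs. Among fibroblasts, 32 nuclei with Bnc2 as leading gene came from the young library and 0 from the aged one.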

How the results depend on the processing

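No paired analysis was possible because each age has 1 library. Without the thalamic-like sub-cluster, an alternative added after the data were seen, 0 members passed the fold in neurons in place of 1, and the log2 difference of Trpm6 was 0.29. Over all alternatives it ran from 0.29 to 1.62, at 0.39 and 0.91 with 5 or 1 CPM added. Of 99 alternative log2 values of the members in neurons 92 stayed within the counting interval, and Trpm7 changed sign once, to 0.01 with free RNA subtracted. That subtraction also moved Trpc5 to -0.06 and Trpm3 to 0.09, outside their intervals. Trpm3 moved to 0.0055 with neuron sub-clusters weighted alike. In the other main classes the count of 0 became 4 with doublets kept, 1 with TRP genes used for clustering (Trpc4 in oligodendrocytes), 1 with free RNA subtracted (Trpm3 in precursors, 1.81), 6 with a minimum of 10 UMIs and 4 at a lower fold limit. The causes were not tested. The 14 sub-cluster pairs became 38 with a minimum of 10 UMIs, 48 at that lower fold limit, 7 at a fold of 2 and 32 at neuron resolution 2. Over the Sim1 supraoptic-like sub-cluster and the Avp- or Oxt-rich set together, the count of 2 (both in the rich set) became 1 with mitochondrial UMIs at 1% or less, 4 with a minimum of 10 UMIs and 1 at a fold of 2. Median-of-ratios scaling shifted oligodendrocytes by 0.10 on the log2 scale and the other classes by less. Adding mural and endothelial cells to the likeness groups, also chosen after the data were seen, kept 7 of 27 named genes. The count of members highest in neurons stayed at 4 under its alternatives. The count with the same leading sub-cluster fell from 7 to 5 with mitochondrial UMIs at 1% or less, and to 5 with TRP genes used for clustering. It was 6 at neuron resolutions 0.5 and 2, and stayed at 7 under its other alternatives. Depth limits Trpm6 throughout, and Trpm2 in glia other than microglia.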

Other observations

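Fibroblasts, the cells of the meninges and vessel sheaths, were the class next to astrocytes in Trpm3. The 95 young fibroblast nuclei had 4426 CPM (4216 to 4644) on 1662 UMIs, found in 60 nuclei, and the 16 aged ones had 2156 CPM on 136 UMIs, found in 5 nuclei with 77 UMIs in 1 of them. Endothelial cells had 189 CPM on 13 UMIs aged and 74.7 CPM on 4 UMIs young.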
